A study of Homo sapiens with 32 samples.

Results

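The genes described here are 34 integrin and focal adhesion genes. Of these, 16 encode integrin subunits, the receptors of the cell surface, and 18 encode focal adhesion proteins of the cytoplasm, here called adaptors. The genes were read in A375 cells, an established human melanoma line, from lists of N6-methyladenosine (m6A) peaks. A peak belonged to a gene when its summit lay within the RefSeq span of that gene on hg38, on either strand. Peaks of the 4 lists that overlapped on 1 strand, by 1 bp or more, were joined to loci, which gave 292 loci in the 34 genes, of 66409 loci in all. Of these, 118 were in receptors and 174 in adaptors.

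The study pulled down RNA fragments that carry m6A, a methyl group on adenosine, with an antibody and sequenced them, from chromatin-associated RNA freed of ribosomal RNA. Of its 32 samples in 16 groups, 4 m6A-enriched A375 libraries are used: 2 carried a control hairpin (shControl, genotype label WT) and 2 carried a hairpin against METTL3 (shMETTL3, METTL3 knockdown), the enzyme that writes most m6A in messenger RNA. The question of the comparison is which marked sites depend on METTL3. No clone number, time after infection or separate culture is given in the labels, so the spread between the 2 libraries of a group may be technical. The peak names of the knockdown lists carry the prefix ko where the labels say knockdown.

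METTL3 itself had 5 peaks in every list, and peak lists do not measure how much of an RNA is present. The lists held 42969 to 47692 peaks, and the read depth behind them is unknown. Of the melanocyte lineage markers, MITF, PAX3 and EDNRB carried peaks, while PMEL, MLANA, TYR, DCT, TYRP1, SOX10 and KIT carried none. All 5 markers of the dedifferentiated melanoma state carried peaks. Peaks lay in 1 of 6 keratinocyte, 2 of 6 fibroblast, 0 of 6 leukocyte and 1 of 4 endothelial and platelet markers. A gene without a peak may be unexpressed, unmethylated or below the peak threshold, which cannot be told apart here.

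Integrins are heterodimers of an alpha and a beta chain that bind matrix proteins outside the cell. Talins and kindlins bind the beta tail and switch the receptor on. Scaffold and signalling proteins such as paxillin and focal adhesion kinase gather at the site, and vinculin, the alpha-actinins and the filamins tie it to actin filaments. These contacts carry force and set adhesion and movement in melanoma cells as in other adherent cells.

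The members together had fewer peaks in both knockdown lists than in either control list. Control replicates 1 and 2 held 211 and 204 member peaks and knockdown replicates 1 and 2 held 157 and 143, so the groups did not overlap. The means were 208 ± 4.95 in control and 150 ± 9.90 in knockdown (SD, n = 2 each). The two-sided p of an exact permutation test was 0.33, which is as low as 2 libraries against 2 can reach, so no comparison of libraries here can pass 0.05. Of all peaks, member peaks made up 0.465% and 0.428% in control against 0.356% and 0.33% in knockdown, and with lists cut to equal length the difference in member peaks was -45.5 (-57.5 with whole lists). The covered length was 67.3 and 67.4 kb in control and 53.4 and 49.8 kb in knockdown, with mean widths of 325 and 344 bp. Less methylation and less RNA of a gene cannot be told apart from peak lists, and the input libraries are not analysed here.

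Both receptors and adaptors had fewer peaks in each knockdown list than in either control list. Receptor peaks numbered 89 and 79 in control and 50 and 48 in knockdown. Adaptor peaks numbered 122 and 125 against 107 and 95. Receptors thus made up 42.2% and 38.7% of member peaks in control and 31.8% and 33.6% in knockdown, a difference of means of -7.75 percentage points (knockdown minus control; exact permutation p = 0.33, n = 2 each). Both knockdown values lay below both control values. Median fold enrichment, the authors' own value for how far a peak stands above its background, was 3.49 and 3.35 for member peaks in control and 3.33 and 3.43 in knockdown, below the medians of the whole lists (3.65 to 3.93).

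**Figure D1:**
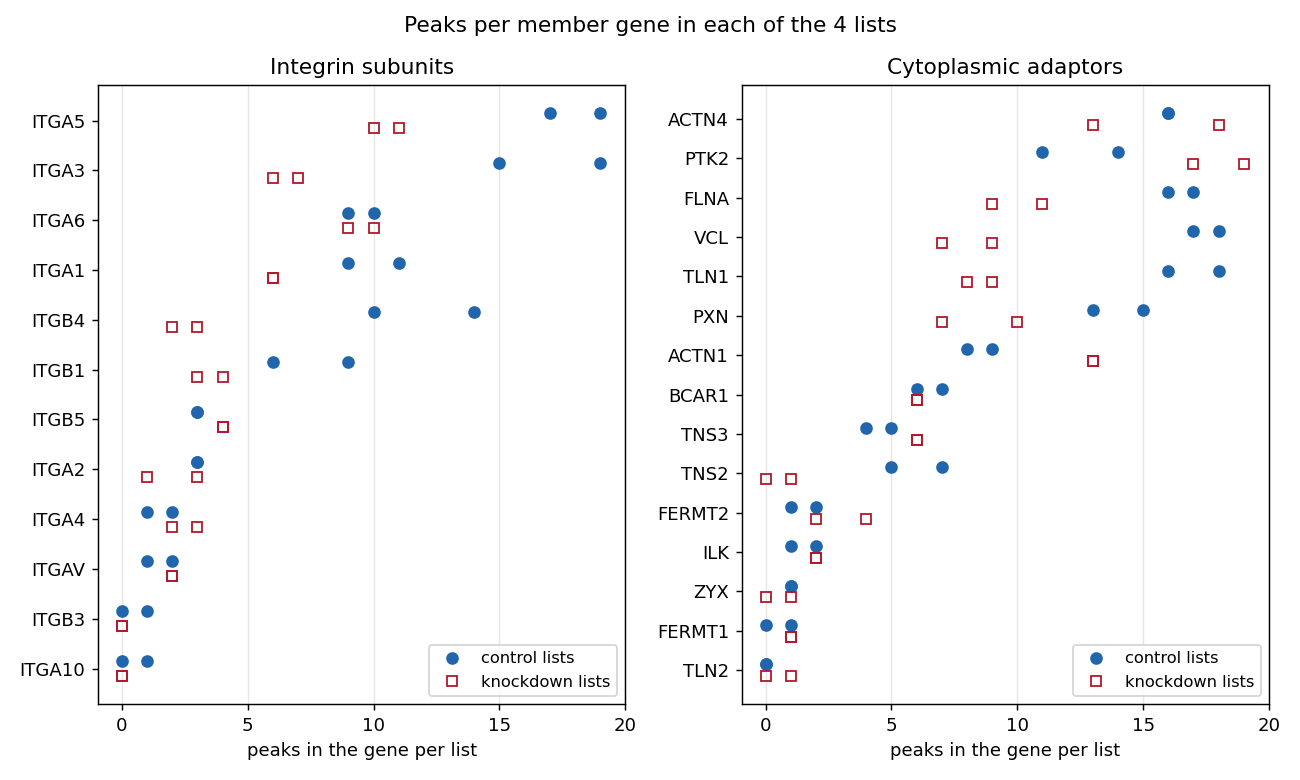
Number of peaks (x axis) in each of the 27 members with any peak (y axis), for integrin subunits on the left and adaptors on the right; filled circles are the 2 control lists and open squares the 2 knockdown lists. ITGA5, ITGA3, ITGB4, TLN1, VCL and FLNA have both control lists to the right of both knockdown lists, while PTK2 and ACTN1 lie the other way.

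A locus is called control-only when both control lists and neither knockdown list held it, and knockdown-only in the reverse case. Both control lists held 164 member loci, and 56 of them (34.1%, Wilson 95% interval of 27.3% to 41.7%) were control-only, beside 22.1% of the 33870 such loci in any RefSeq gene. Of the 114 member loci in both knockdown lists, 16 (14.0%, 8.83% to 21.6%) were knockdown-only, beside 18.7% over all genes. The members thus had a control-only share above the background and a knockdown-only share close to it. In all, 85 member loci were in all 4 lists. Intervals cover counting error only; loci of a gene share its RNA and are not independent, so the intervals are too narrow, and no test over loci or genes was made.

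Among receptors 25 of 63 loci were control-only (39.7%, 28.5% to 52.0%), and among adaptors 31 of 101 (30.7%, 22.5% to 40.3%). The difference was 8.99 percentage points, with a Newcombe interval of -5.70 to 23.8, which includes 0. It was -1.61 when only peaks with a fold of at least 4 were counted. Knockdown-only shares were 13.9% (5 of 36) in receptors and 14.1% (11 of 78) in adaptors. Without control replicate 2 the difference in control-only share was 18.1 (interval 4.49 to 30.9), so its size depends on that library. These intervals treat the loci of a gene as independent, so neither serves as a test of receptors against adaptors. By role, beta chains had 8 of 17 control-only, alpha chains 17 of 46, talins and kindlins 7 of 15, scaffold and signalling proteins 11 of 36, and actin linkers 13 of 50. ITGB4 gave 6 of the 8 in beta chains and TLN1 all 7 in talins and kindlins, and the intervals overlap (26.2% to 69.0% in beta chains, 15.9% to 39.6% in actin linkers).

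**Figure D2:**
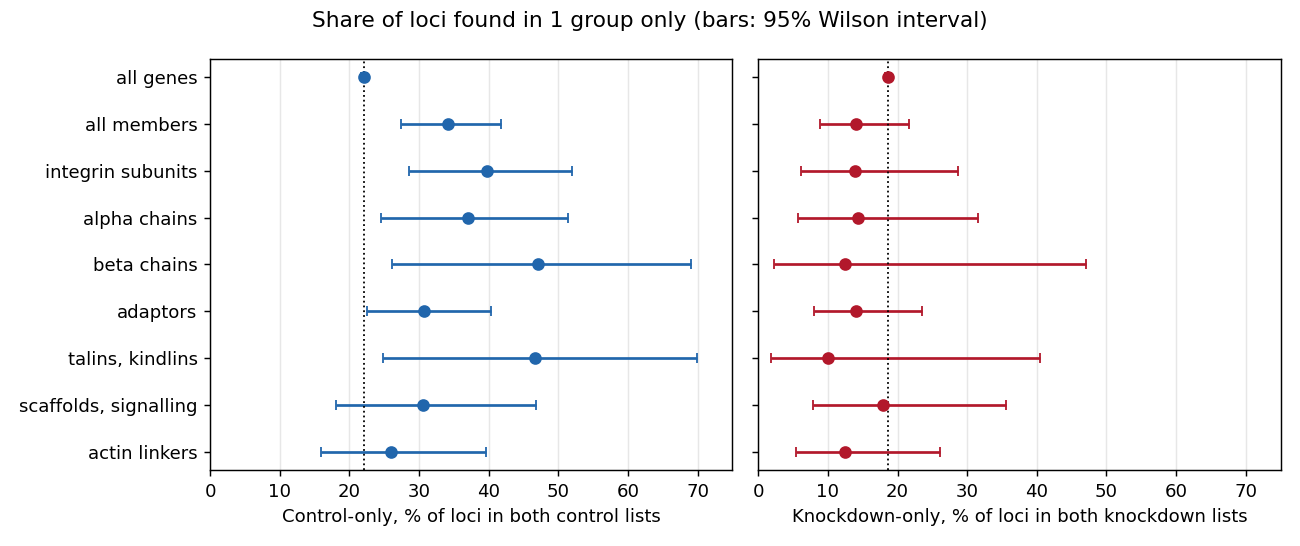
Share of loci found in 1 group only (x axis, percent) for all genes, the members and their roles (y axis); points are shares, bars 95% Wilson intervals and dotted lines the all-gene share. The left panel gives control-only loci, with members at 34.1% against 22.1%, and the right panel knockdown-only loci, with members at 14.0% against 18.7%.

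Single genes were less alike than the pooled shares. Of the receptors with a locus in both control lists, 8 of 10 had at least 1 control-only locus, against 6 of 13 adaptors, beside 40.6% of all such genes. Genes with more loci can more easily hold at least 1, and loci per gene were not matched. There were 63 such loci in 10 receptors and 101 in 13 adaptors, but 33870 in 11107 genes, so the 40.6% is not a like comparison. The median share of control-only loci per gene was 38.0% in receptors and 0% in adaptors. Adaptors split: 5 of them (TLN1, PXN, TNS2, VCL and FLNA) held 30 of the 31 control-only adaptor loci, out of 62 in both control lists. The other 10 adaptors with peaks held 39 such loci, of which 1 was control-only, and 10 of the 11 knockdown-only loci. The 5 are the adaptors with more peaks in both control lists than in either knockdown list. Receptors split likewise under the same rule: ITGA1, ITGA3, ITGA5, ITGB1 and ITGB4 held 22 of the 25 control-only receptor loci, out of 51. The other 7 receptors with peaks held 12 loci in both control lists, of which 3 were control-only, and 4 of the 5 knockdown-only loci. All these subsets were chosen by their values and carry no test.

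Peak counts per gene can be set beside those of all genes. Of 27 members with any peak, 10 had more peaks in both control lists than in either knockdown list, beside 23.5% of all 14097 genes with a peak, and 4 had the reverse order, beside 18.6%. Genes with more peaks separate more easily. Among the 15 members with a mean of at least 5 peaks per list, 9 were higher in control, beside 35.9% of such genes, and 3 were higher in knockdown, beside 20.2%. The 9 were 5 receptors and 4 adaptors, and the 3 were all adaptors.

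**Figure D3:**
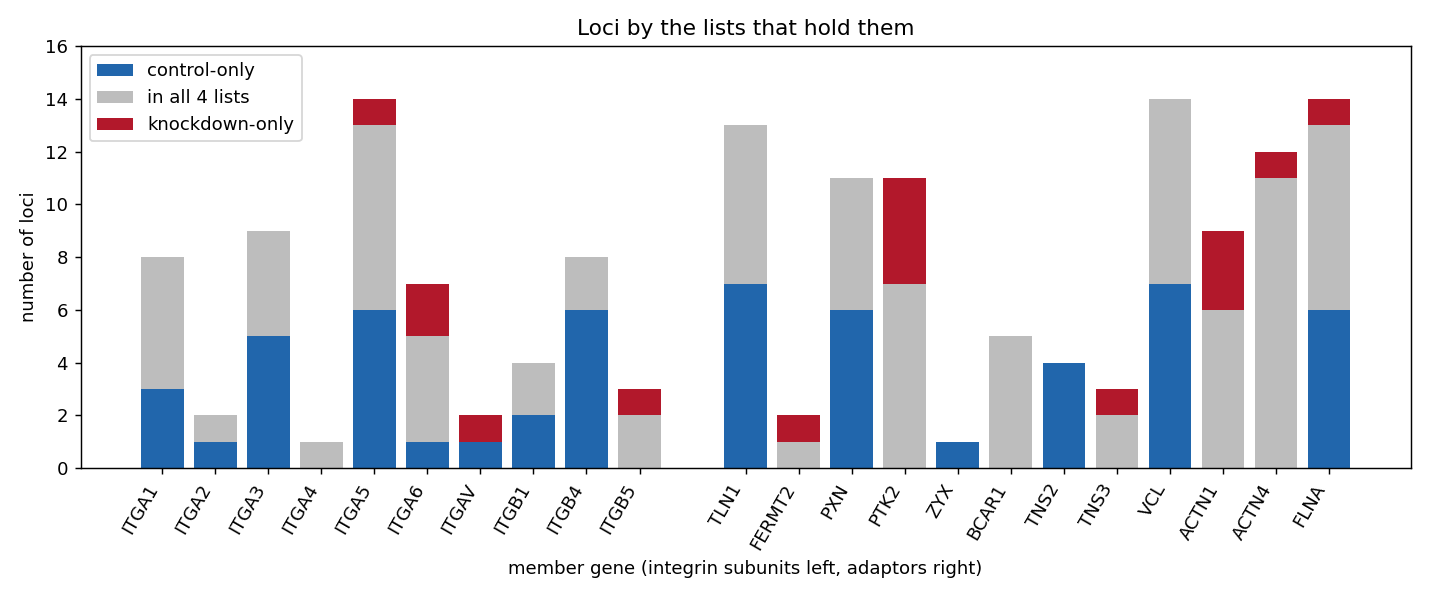
Number of loci (y axis) in each member that has any of the 3 kinds (x axis, integrin subunits left and adaptors right): blue is control-only, grey in all 4 lists, red knockdown-only. TLN1 and VCL each have 7 control-only and 0 knockdown-only loci, and PTK2 has 0 and 4.

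Among the alpha chains, ITGA5, which pairs with ITGB1 as the classical fibronectin receptor, had the most loci. It held 17 and 19 peaks in control and 10 and 11 in knockdown, and the groups did not overlap. Of its 15 loci in both control lists, 6 were control-only. The strongest, on chromosome 12 at 54403653 to 54403837, had folds of 7.11 and 6.21 in control and no knockdown peak. The 1 knockdown-only locus of ITGA5, at 54396023 to 54396346, lay on the opposite strand with folds of 3.61 and 5.06 in knockdown. It was within the extent of the sense locus at the gene end. At the gene end a locus at 54395281 to 54396501 was in all 4 lists, with folds of 6.37 and 6.04 in control and 4.86 and 4.76 in knockdown. A locus at 54403023 to 54403578 was also in all 4, with 4.68 and 3.93 against 1.61 and 1.50, both of the latter below the first percentile of the knockdown lists. Folds are set by each list's own background and are given as values only. The whole of ITGA5 lies in the span of the antisense gene GPR84-AS1, but 21 of its 23 loci were on the ITGA5 strand.

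ITGA3, a laminin-binding chain, had 19 and 15 control peaks and 6 and 7 knockdown peaks. Of its 13 loci in both control lists 5 were control-only and none was knockdown-only. These were weak loci: the strongest by rank, at 50071199 to 50071373 on chromosome 17, had folds of 2.50 and 2.25, which stood at percentiles 11.4 and 8.20 of the control lists. Its strongest locus in all 4 lists lay on the minus strand over the gene end (50089160 to 50090159), opposite to the strand of most of its peaks, with folds of 8.22, 8.80, 8.08 and 6.91 in control 1 and 2 and knockdown 1 and 2.

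ITGA1, a collagen-binding chain, had 11 and 9 peaks in control and 6 and 6 in knockdown, with 3 of 8 loci control-only. One of these, at 52861340 to 52861507 on chromosome 5, had folds of 4.40 and 5.47. Its strongest locus in all 4 lists (52801354 to 52802040; folds of 9.34, 6.05, 7.74 and 8.50) lay within PELO, a gene nested in ITGA1, as did 6 of its 12 loci, and these cannot be assigned to 1 of the genes. ITGA6, another laminin-binding chain, did not separate: it had 10 and 9 peaks in control and 10 and 9 in knockdown. It carried loci of both kinds, 1 control-only of 6 and 2 knockdown-only of 6. The stronger knockdown-only locus, on chromosome 2 at 172471125 to 172471672, had folds of 3.18 and 4.14. The control-only locus, at 172473943 to 172474204, had folds of 2.41 and 2.15. The strongest ITGA6 locus in all 4 lists, at 172503996 to 172505048, had folds of 3.76, 3.30, 3.42 and 3.36.

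The remaining alpha chains had few peaks. ITGA2, a collagen receptor chain, had 3 and 3 against 3 and 1, and a locus in all 4 lists at 52995127 to 52996495 on chromosome 5 (folds 3.87, 3.88, 4.23 and 3.32). ITGA4, which binds fibronectin and VCAM1, had 2 and 1 against 3 and 2. Its 1 locus in all 4 lists, at 181535397 to 181535808 on chromosome 2, had folds of 2.36 and 4.17 in control and 6.41 and 5.31 in knockdown. ITGAV, a vitronectin-binding chain, had 1 and 2 against 2 and 2 peaks; its 1 locus in both control lists was control-only and its 1 locus in both knockdown lists was knockdown-only. ITGA10 had a single peak, in control 2. ITGA7, ITGA9 and ITGA11 had none in any list.

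ITGB4, which pairs with ITGA6 in hemidesmosomes, had the lowest knockdown to control ratio of peaks among receptors with a mean of at least 5 peaks over the 4 lists. It had 14 and 10 peaks in control against 2 and 3 in knockdown, a ratio of 0.208. Of its 9 loci in both control lists 6 were control-only. The strongest, on chromosome 17 at 75754494 to 75754744, had folds of 5.10 and 4.09, and it overlaps the span of GALK1, as do 5 of the 15 loci of the gene. Both loci in all 4 lists lay in the first 10 kb of the gene; that at 75727122 to 75727762 had folds of 4.03, 3.65, 3.87 and 5.0. At the gene end a locus at 75757126 to 75757751 was in both control lists (4.37 and 5.70) and in knockdown 2 (7.21). ITGB4 and its partner ITGA6 thus had unlike values.

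ITGB1, the common beta chain, had 9 and 6 peaks in control and 4 and 3 in knockdown, with 2 of 6 loci control-only. Its strongest locus in all 4 lists, on chromosome 10 at 32928179 to 32928390, had folds of 4.62, 3.62, 3.86 and 2.75. ITGB5, a partner of ITGAV, was the 1 receptor with more peaks in both knockdown lists, 3 and 3 against 4 and 4, a gap of a single peak. Its 2 loci in all 4 lists included 124796458 to 124796798 on chromosome 3, where folds were 3.87 and 4.14 in control and 2.63 and 3.09 in knockdown. ITGB3 had 1 peak, in control 2, and ITGB8 had none.

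Start sites of transcription can be read from RefSeq promoter windows (GRCh38.p14, the same build as hg38), which were found for 26 of the 34 members. At 7 start sites the first 30 transcribed bases lay wholly inside a member locus on the same strand, 5 of them in all 4 lists and 2 knockdown-only. They are shown because the 2 knockdown-only starts, of ITGAV and of an inner start of ITGB5, are the loci at starts on the gene's own strand that were in both lists of 1 group and neither of the other. Capitals mark the first transcribed base and any of 6 words of 4 letters that end in AC, begin with A, G or T and have A or G between, the core of the usual m6A motif; sequences run 5′ to 3′.
ITGAV, knockdown-only, chr2:186590056-186590085, plus strand: AgtccccagcctcAGACgctgcgtggagcg
ITGB5 inner start, knockdown-only, chr3:124887336-124887365, minus strand: Agagtgtgccggcgcgcgggggagtctcgg
ITGA1, all 4 lists, chr5:52787916-52787945, plus strand: Acccgccttcctaccaccttaggggatttg
ITGA6 inner start, all 4 lists, chr2:172427586-172427615, plus strand: Aacgggctcattcagcggtcgcgagctgcc
VCL, all 4 lists, chr10:73998116-73998145, plus strand: Agtcgctgcacagtctgtctcttcgccggt
ACTN1, all 4 lists, chr14:68979273-68979302, minus strand: Agtgtgcgtggagattaggtccaagcgccc
ACTN4, all 4 lists, chr19:38647649-38647678, plus strand: Gaagcagctgaagcggcggtagcggcggcg

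Of these 7 starts 6 began with A, beside 44.4% of the 35116 windows of the table. The first 50 transcribed bases held any of the 6 words, on the transcribed strand, in 2 of 7 starts (ITGAV, and ITGA1 past the bases printed), beside 58.4% of all windows. GGAC alone is in 18.9% of windows and in none of the 7. No match says only that these letters are absent from the window. The m6A antibody also binds the methylated adenosine that follows the cap in many transcripts starting with A, so the 2 marks cannot be told apart at a gene start.

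The ITGAV start locus (186590047 to 186590800) had folds of 3.52 and 2.90 in the knockdown lists, and the ITGB5 locus (124887218 to 124887493) had 4.76 and 3.61. Against them, the ITGA1 start had folds of 4.27 and 3.93 in control and 5.79 and 6.07 in knockdown, and the VCL start 3.17 and 3.24 against 3.25 and 4.01. The ACTN1 start had folds of 9.62 and 6.45 in control and 5.36 and 5.14 in knockdown. None of the 8 sense loci within 500 bp of a gene start that were in both control lists was control-only, beside 47 of 134 (35.1%) in gene interiors and 5 of 16 in the last 2000 bp. With 8 loci, the Wilson interval for the starts reaches 32.4%, close to the interior value. Shares by position were not computed over all genes, so the values at starts cannot be called particular to the members.

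Among the talins and kindlins, TLN1 (talin 1, which links the beta tail to actin) held 18 and 16 peaks in control and 8 and 9 in knockdown. Of its 14 loci in both control lists 7 were control-only, and it had no knockdown-only locus. Its strongest control-only locus, on chromosome 9 at 35720872 to 35721038, had folds of 9.19 and 9.62, above the 98th percentile of both control lists. Close by, at 35724642 to 35725082, a locus was in all 4 lists with folds of 5.01, 4.50, 3.73 and 4.89. The control-only loci on the TLN1 strand all lay between 35714694 and 35721942. Their summits were 10375 to 17430 bp from the start of the gene, which is 35.2 kb long. The 2 loci on that strand nearest the gene end were in at least 3 lists.

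TLN2, the second talin, had 1 peak in knockdown 1 and none elsewhere. FERMT2 (kindlin-2) had 1 and 2 peaks in control and 4 and 2 in knockdown, with a start locus in all 4 lists (52950440 to 52950703 on chromosome 14; folds of 5.11, 3.76, 4.90 and 4.22). FERMT1 (kindlin-1) had a single locus, at 6076919 to 6077333 on chromosome 20, with a fold of 2.56 in control 1, no peak in control 2, and 5.97 and 6.38 in knockdown.

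Among the scaffold and signalling proteins, PXN (paxillin) had 13 and 15 peaks in control and 10 and 7 in knockdown. Of its 12 loci in both control lists 6 were control-only, and it had no knockdown-only locus. Its strongest control-only locus lay on the opposite strand (120219863 to 120220080 on chromosome 12; folds of 3.54 and 3.79), beside a sense locus in all 4 lists at 120218594 to 120219662 with folds of 6.59, 4.27, 6.95 and 6.77. TNS2 (tensin 2, which binds beta tails and actin) had 5 and 7 peaks in control against 0 and 1 in knockdown. Of its 5 control loci 4 were control-only, the strongest at 53060924 to 53061402 on chromosome 12 (folds 4.92 and 4.08), and it had no locus in both knockdown lists.

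PTK2, focal adhesion kinase, lay the other way. It had 11 and 14 peaks in control and 17 and 19 in knockdown, without overlap, and 0 of 9 control loci were control-only. Of its 12 loci in both knockdown lists 4 were knockdown-only, all of them in the interior of the gene. These were weak loci, below the median fold of both knockdown lists. The strongest, on chromosome 8 at 140844570 to 140844831, had folds of 3.10 and 3.71, at percentiles 26.1 and 43.7. The weakest, at 140970519 to 140970756, had folds of 1.43 and 2.02, at percentiles 0.0998 and 3.74. A locus at the gene end (140659006 to 140659737) was strong in all 4 lists, at 8.42, 6.74, 7.39 and 8.40.

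TNS3 (tensin 3) had 4 and 5 peaks in control and 6 and 6 in knockdown. A locus 281 bp from its gene end, at 47275363 to 47276132 on chromosome 7, was knockdown-only, with folds of 5.18 and 4.57. Further inside the gene, 47277319 to 47278230 had folds of 8.02 and 6.40 in control and 12.2 and 14.1 in knockdown. BCAR1 (p130Cas, a substrate of focal adhesion and Src kinases) was even between the groups. It had 7 and 6 against 6 and 6 peaks, and all 5 of its loci in both control lists were also in both knockdown lists. Its strongest, at 75234898 to 75236053 on chromosome 16, had folds of 7.99, 9.10, 8.98 and 9.08.

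The others in this role had few peaks. ZYX (zyxin) had 1 and 1 against 1 and 0, with a control-only locus at 143386856 to 143387163 on chromosome 7 (folds of 3.41 and 4.72). ILK, the integrin-linked pseudokinase, had 1 and 2 against 2 and 2 and no locus of any of the 3 kinds. PARVA, its partner, and TNS1 had no peak in any list.

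Among the actin linkers, VCL (vinculin) had 18 and 17 peaks in control and 9 and 7 in knockdown. Of its 16 loci in both control lists 7 were control-only and 7 were in all 4 lists. The control-only loci lay mostly past the middle of the gene, 5 of them between 74070870 and 74097314. The summits of these 5 were 72838 to 99095 bp from the start of the gene, which is 123 kb long. The strongest control-only locus, at 74094183 to 74094376 on chromosome 10, had folds of 5.53 and 4.30. The strongest locus in all 4 lists, at 74117938 to 74118921, had folds of 4.01, 4.99, 4.79 and 5.09. A locus at 74070543 to 74070740 was in all 4 lists (4.21, 4.26, 3.0 and 3.62), while the next one, at 74070870 to 74071026, was control-only with 4.52 and 4.46.

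FLNA (filamin A) had 17 and 16 control peaks and 11 and 9 knockdown peaks. Of its 15 control loci 6 were control-only, with folds of 3.27 or less, the strongest at 154362530 to 154362879 on the X chromosome with 3.25 and 3.27. Its 1 knockdown-only locus, at 154360048 to 154360369, lay on the opposite strand with folds of 2.85 and 3.73. Its strongest locus in all 4 lists, at 154367476 to 154367834, had folds of 4.32, 4.71, 3.94 and 3.70. FLNC had no peak in any list.

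The alpha-actinins, which crosslink actin filaments, had no control-only locus among 19 loci in both control lists. ACTN1 had 9 and 8 peaks in control and 13 and 13 in knockdown, without overlap. Of its 11 knockdown loci 3 were knockdown-only, the strongest at 68881311 to 68881645 on chromosome 14 (folds 2.88 and 3.15). Its strongest interior locus in all 4 lists, at 68882518 to 68882709, had 6.12, 5.17, 6.26 and 7.79. ACTN4 had 16 and 16 peaks against 18 and 13, which overlap, and 11 of its 13 loci in both control lists were in all 4. At its gene end (38729731 to 38730405 on chromosome 19) folds were 3.46 and 3.88 in control and 2.05 and 2.11 in knockdown.

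**Figure D4:**
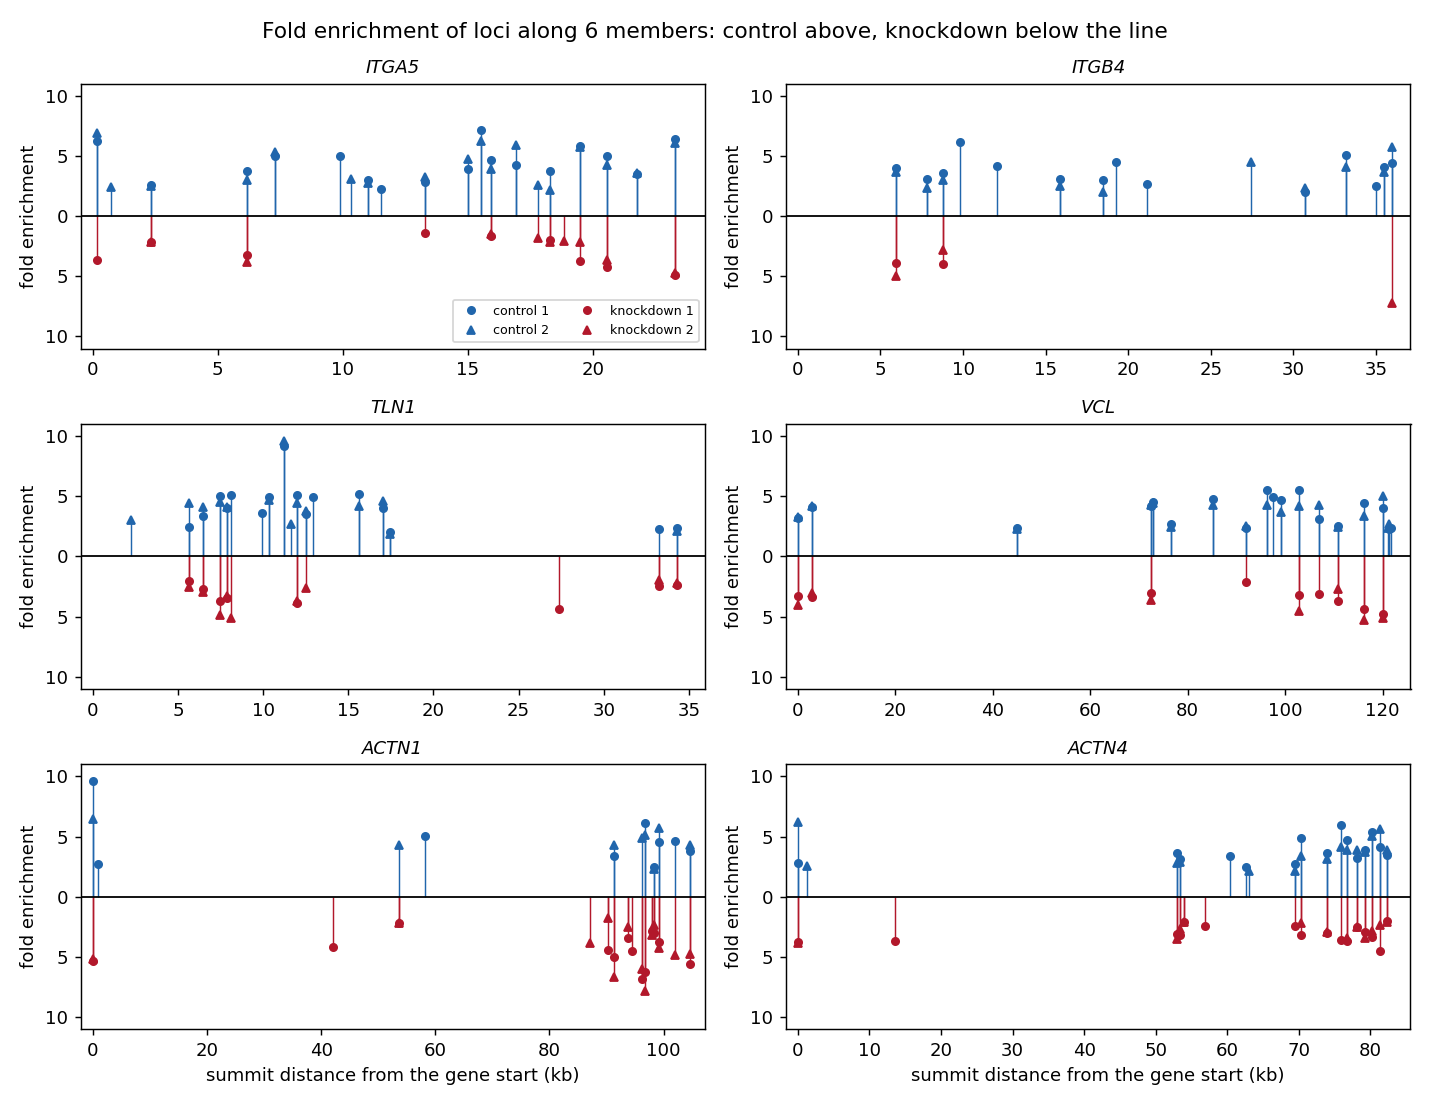
Fold enrichment (y axis, linear, control above and knockdown below the line) of each locus on the gene's strand against the distance of its summit from the gene start (x axis, kb) in 6 members; circles are replicate 1 and triangles replicate 2. ITGB4 has 14 and 10 peaks above the line and 2 and 3 below it, while ACTN1 has 9 and 8 above and 13 and 13 below.

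Only 2 of the 23 members with a locus in both control lists had all of these control-only (8.70%), ITGAV and ZYX, each with 1 locus, beside 9.44% of all such genes. In the reverse direction it was 1 of 22 members (4.55%), ITGAV, beside 10.1%. The first share rests on 2 genes and the second on 1, each with a single such locus. Genes with many loci can less easily have all of them in 1 group only, and loci per gene were not matched. The shares of all genes are thus not a like comparison. The difference in loci ran beside gene length in part. Over the 15 members with a mean of at least 5 peaks over the 4 lists, Spearman's rho between gene length and knockdown-only minus control-only loci per locus was 0.47, and 0.37 without PTK2. This is a description across genes that share the same 4 libraries.

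Control-only member loci were narrower and weaker than those in all 4 lists. Their median width was 224 bp against 361 bp, and 249 against 471 bp over all genes. Knockdown-only loci had a median width of 323 bp in members and 286 bp over all genes. The extent of a locus spans all its joined peaks, so loci in more lists tend to be wider by construction, and the widths carry no test. Median folds of control-only member loci were 3.11 and 3.26 in the control lists, against 3.80 and 3.88 for loci in all 4 lists. Knockdown-only member loci had medians of 2.99 and 3.03 in the knockdown lists, against 3.66 and 3.57. The part of peak strength in the shares was not tested.

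Other genes of the pathway lay close to the background. Of 59 further focal adhesion genes 48 carried peaks, in numbers of 322 and 345 in control and 334 and 312 in knockdown, which overlap. Of their 274 loci in both control lists 63 (23.0%) were control-only, beside 22.1%, and of 253 in both knockdown lists 54 (21.3%) were knockdown-only, beside 18.7%. MYH9, the heavy chain of non-muscle myosin, had 7 control-only loci of 36 in both control lists, and SVIL (supervillin, an actin-binding protein) and ARHGAP26 had 6 each. LPP and ASAP1, a LIM protein and an Arf GTPase-activating protein of adhesions, had 6 knockdown-only loci each, and PPFIBP1 and DLC1 had 5 each. In LPP peaks numbered 7 and 6 in control against 18 and 14 in knockdown. Of 10 further integrin subunits 3 carried peaks, and ITGAX, a leukocyte chain, had 4 peaks in each control list and none in knockdown.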

How the data were processed

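MeRIP-seq peak lists of 4 A375 libraries (2 shControl, 2 shMETTL3) were used. Per the submitters' processing notes, the build was hg38 and the tools were MACS2 2.2.7.1, HISAT2 2.1.0, Bowtie2 2.4.2, Trim Galore 0.6.6 and SAMtools, named without roles or order. The use of the m6A spike-in and of input RNA in peak calling is not stated there. Peaks were called per library and per strand, per the names of the deposited peaks. Deposited values are a fold enrichment (ratio), −log10 p and q values (smallest −log10 q 2.00) and a score, a multiple of the −log10 q, that was left aside.

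Loci were formed and placed in spans of a RefSeq table (GRCh38.p14, 59788 genes, all biotypes) with Python 3.11.15 and pandas 2.3.3. Gene strands came from the RefSeq promoter table for 26 members and from most of their own peaks for 5; 3 members in neither had no peak. In all, 78 member loci also lay in the span of another gene, 16 lay on the opposite strand, and 4 peaks touched a member with the summit outside. Exon and intron annotation was not used here. Joining and classing were tested on simulated lists. Libraries were compared by exact two-sided permutation tests; shares have 95% Wilson intervals. The members and lists were chosen with earlier results of these data known. Single loci named are, for the 10 members with the most control-only and knockdown-only loci (ties kept), the strongest of each kind by the lower fold percentile, and for each integrin subunit the strongest in all 4 lists; further loci were named after their values were seen. The values of 1 further focal adhesion gene are not reported here.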

Additional observations from a re-analysis of the deposited data

How the results depend on the processing

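The alternatives were another joining rule (reciprocal overlap of 50%), a fold of at least 4, a −log10 q of at least 20, lists of equal length, the strand of the gene only, loci of 1 gene only, no PTK2 (the member with the most loci) and each library left out. After the data were seen, leaving out ITGA5 and joining both strand and single-gene limits were added. Of 143 alternative values 130 were classed as unchanged. For shares of loci and their difference this meant staying within the interval of the reported value, and for counts of genes within 1.5 times. Differences between libraries (member peaks and receptor share) only had to keep their sign, so their size was not checked. With a fold of at least 4 the control-only share was 51.1% in members and 51.6% in adaptors, beside 24.6% over all genes, the receptor minus adaptor difference turned to -1.61 percentage points, and 2 members had all knockdown loci knockdown-only. With a −log10 q of at least 20 the knockdown-only share of receptors was 5.26% (1 of 19). With lists of equal length 3 members had all knockdown loci knockdown-only.

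Leaving out 1 library gave control-only shares of 37.9% to 43.5% in members and 44.4% to 53.9% in receptors, beside 27.6% to 29.2% over all genes, since the rule then asks for fewer lists. Members with all control loci control-only numbered 2 to 4 (4 without control replicate 1), and with all knockdown loci knockdown-only 1 to 3 (2 without either control replicate, 3 without knockdown replicate 2). The receptor minus adaptor difference ranged from 8.80 to 18.1, the higher value without control replicate 2. The interval there, 4.49 to 30.9, counts loci as independent and serves as no test. Member peaks were fewer in knockdown under every setting run, by 24.5 to 64.5 peaks on average. The receptor share of member peaks differed by -2.59 points with a fold of at least 4 (exact permutation p = 0.67) and by -9.47 to -5.71 under the other settings. With a replicate block (sign flips within replicate number) the difference in member peaks was -57.5 and that in the receptor share -7.75, each with an exact permutation p of 0.5, the smallest that 2 pairs allow. Replicate numbers share only a number: over 2867 genes the deviations of same-numbered libraries correlated at 0.0638. The read depth is unknown, so a missing peak may be one below the threshold.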

Other observations

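Of the 292 member loci 16 lay on the strand opposite to the gene. The strongest was the locus over the end of ITGA3, in all 4 lists. It lay within the extent of a sense locus (50088984 to 50090445) that was also in all 4 lists. TLN1 had 2 control-only loci on the opposite strand, one of which (35724703 to 35724864; folds of 3.94 and 3.58) lay within the extent of the sense locus at 35724642 to 35725082. FLNA had 3 such loci, at 154360048 to 154360369 (knockdown-only), 154367716 to 154368026 and 154370948 to 154371217. The last was in all 4 lists, with folds of 3.39, 2.13, 3.60 and 4.16. The first and the last each lay within the extent of a sense locus in all 4 lists, and the middle one overlapped sense loci on both sides. At the start of TNS2 a minus-strand locus (53046930 to 53047080 on chromosome 12) was control-only, with folds of 4.06 and 3.58.

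Outside the members, PECAM1, an adhesion receptor of endothelial cells and leukocytes, had 3 and 4 peaks in control and 0 and 0 in knockdown, and all 3 of its loci in both control lists were control-only. The 5 markers of the dedifferentiated melanoma state together had 3 of 19 loci control-only (15.8%, beside 22.1% over all genes). Knockdown-only were 8 of 26 (30.8%, beside 18.7%), and the difference from all genes was not tested. Of these EGFR held 1 and 5, AXL 2 and 1, and WNT5A 0 and 2.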
